A study of Mus musculus with 20 samples.

Results

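Monoamine neurotransmission was followed in the cerebellum through 7 genes, chosen by name from the 55401 genes of the read count table and all found there: Th and Ddc, which encode the enzymes that make dopamine, Maoa and Maob, which encode the enzymes that break monoamines down, and the receptor genes Htr1b, Htr2c and Adra1a. All 7 had enough reads to be tested in every comparison, with between 112 and 3198 reads per library, so that none had to be given as a bound. The cerebellar RNA of 20 C57BL/6J mice was sequenced, with 1 cerebellum per library. Early libraries, labelled 9w, came from 3 WT mice that received AAV-shA4 and 3 WT mice without virus. Late libraries, labelled 25w, came from 5 SCA7 140Q/5Q knock-in mice given AAV-shA4, 5 SCA7 140Q/5Q knock-in mice given AAV-shSCR and 4 WT mice without virus. The weeks are those of the labels. The study's text counts weeks from injection and gives a slightly lower number for the late mice than their label. The 140Q/5Q mice carry 1 expanded and 1 normal copy of the Atxn7 CAG repeat, and shA4 is a short hairpin RNA directed to CAG repeats. The control hairpin shSCR is a scramble of another CAG-directed hairpin of the study, not of shA4. According to the methods, both are expressed from AAV PHP.eB injected into the blood, and untreated mice received saline. By the fluorescence of its eGFP reporter, the study found that this virus reached most Purkinje cells (PCs) of the cerebellum and few if any granule cells. As no WT mouse labelled 25w carried virus, the knock-in allele and the virus cannot be told apart where SCA7 and WT mice are compared.

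Tyrosine hydroxylase, the product of Th, turns tyrosine into L-DOPA with tetrahydrobiopterin as cofactor and limits the rate at which dopamine and noradrenaline are made. L-DOPA becomes dopamine through aromatic L-amino acid decarboxylase, the product of Ddc, which also makes serotonin. The cerebellum receives noradrenergic and serotonergic fibres whose cell bodies lie in the brainstem, whereas some PCs of the mouse express Th themselves. Since RNA stays mostly in cell bodies, cerebellar RNA reports on cerebellar cells rather than on these incoming fibres.

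Most defining genes of the monoamine neurons were at or near 0. Pitx3 and Phox2a, transcription factors of dopaminergic and noradrenergic neurons, had at most 2 reads in any library, the dopamine transporter gene Slc6a3 at most 11, and the serotonin transporter gene Slc6a4 at most 5. The noradrenergic genes Dbh and Slc6a2 had at most 35 and 34 reads, both in untreated 25w WT replicate 3. Of the serotonergic genes, Fev had 1 to 18 reads and Tph2 14 to 37 reads, so that Tph2 was low but present in every library. Genes of the cerebellum itself were abundant, with a summed level of 22 PC genes between 8983 and 14307 CPM (counts scaled to library size with edgeR's TMM over all 20 libraries). Reads counted on genes ranged from 31465586 to 54570503 per library. In the 9w groups the depth of AAV-shA4-treated and untreated mice did not overlap. A pair of libraries stood apart, AAV-shA4-treated SCA7 replicate 1 and untreated 25w WT replicate 1, with 36.9 and 37.8 CPM summed over 5 genes of the neighbouring midbrain tectum (Tfap2d, Gata3, Pou4f2, Lhx9 and Shox2) against 0.607 to 4.70 CPM in the other 12 libraries labelled 25w. In WT mice at 9w this sum was 3.10 to 9.01 CPM with AAV-shA4 and 0.688 to 10.4 CPM without. These 5 genes were chosen after the data were seen.

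Among the members, Maob had the highest level per length of transcript, at 22.3 CPM per kilobase over the 20 libraries. It was followed by Maoa with 14.3, Th with 8.72, Htr1b with 7.44, Ddc with 5.53 and Htr2c with 5.36 CPM per kilobase. Adra1a was lowest, with 1.84 to 2.42 CPM per kilobase as the mean of a group. This order is over all libraries and differed between groups: Th, with 14.8 CPM per kilobase, was above Maoa (14.1) in untreated 25w WT mice, and, with 5.13, below Htr1b (6.65), Htr2c (5.52) and Ddc (5.32) in AAV-shA4-treated SCA7 mice. Lengths are the median over the annotated transcripts of a gene, and these values compare levels, not differences between conditions.

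Th (ENSMUSG00000000214) lies on the minus strand of chromosome 7 from 142892752 to 142931128 (GRCm38). The promoters of Th and Htr1b are shown because these are the members that changed in SCA7 mice. The 250 bases before the RefSeq start of each gene (GRCm38.p6, both on the minus strand) are printed with the cyclic AMP response element in capitals. For Th this start differs from the end of the gene given above, which is set by longer annotated transcripts that begin further upstream, so that the window lies within them:

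Th, chr7:142899996-142900245: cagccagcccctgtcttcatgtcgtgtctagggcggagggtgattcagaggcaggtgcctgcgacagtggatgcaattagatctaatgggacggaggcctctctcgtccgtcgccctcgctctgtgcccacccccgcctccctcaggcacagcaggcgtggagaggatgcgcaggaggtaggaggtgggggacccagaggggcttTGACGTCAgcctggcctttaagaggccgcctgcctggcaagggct

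Htr1b, chr9:81633833-81634082: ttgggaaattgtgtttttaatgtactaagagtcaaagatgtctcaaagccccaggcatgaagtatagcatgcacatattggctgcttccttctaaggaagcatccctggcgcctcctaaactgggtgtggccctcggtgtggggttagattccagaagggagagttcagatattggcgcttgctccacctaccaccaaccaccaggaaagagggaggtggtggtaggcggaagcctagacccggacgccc

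The element (TGACGTCA, the same on both strands) begins 45 bases before the RefSeq start of Th, and 1.55% of 32851 promoter windows of this length hold it. The NR4A response element (AAAGGTCA, either strand) is held by 1.34% of windows and the TATA box (TATAAA, either strand) by 12.4%, and neither is in the windows of Th or Htr1b. The Htr1b window holds none of the 3 motifs. A match is a description of the letters.

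Th was the member with the largest difference between SCA7 and WT mice. At 25w its level was 17.0, 18.6, 12.4 and 19.8 CPM in the 4 untreated WT mice. In AAV-shSCR-treated SCA7 mice it was 6.72, 5.78, 6.73, 4.41 and 6.86 CPM, and in AAV-shA4-treated SCA7 mice 5.73, 4.64, 6.12, 8.06 and 4.84 CPM. Every SCA7 mouse was below every WT mouse labelled 25w, and the 2 SCA7 groups lay over each other. Compared to WT mice, Th fell by 1.47 on the log2 scale with AAV-shSCR (SE 0.16, 2.77-fold lower, adjusted p = 8.86e-06 by the quasi-likelihood test of edgeR, adjusted over all genes by Benjamini-Hochberg). With AAV-shA4 it fell by 1.53 (SE 0.16, 2.89-fold lower, adjusted p = 6.03e-06 in edgeR). Both comparisons use the same 4 WT mice, so they are not independent of each other. Among 14862 genes tested, 49 had a more negative log2 fold change than Th with AAV-shSCR and 11 with AAV-shA4. In bulk RNA, fewer cells of a type and less RNA per cell cannot be told apart.

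**Figure D1:**
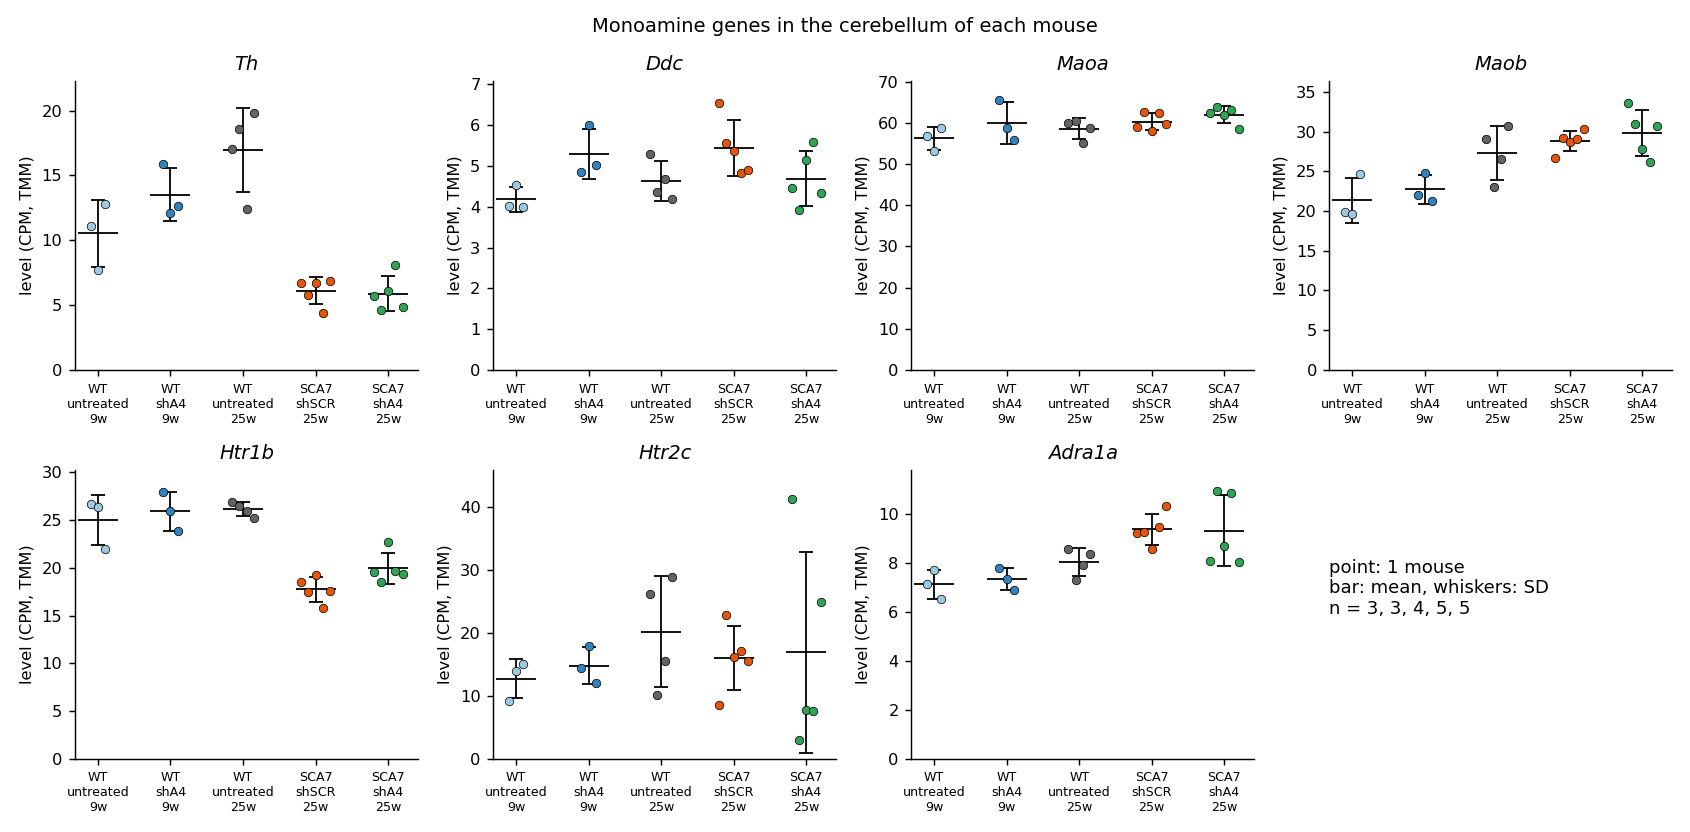
Level of each of the 7 genes (y axis, CPM scaled with TMM over all 20 libraries, from 0) in the 5 groups (x axis). Points are mice, horizontal bars the mean and whiskers the SD (n = 3, 3, 4, 5 and 5). Th and Htr1b are lower in both SCA7 groups than in untreated 25w WT mice without overlap, and Htr2c spreads from 2.90 to 41.3 CPM among AAV-shA4-treated SCA7 mice.

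Between the 2 SCA7 groups the log2 fold change of Th was −0.062 (95% interval −0.41 to 0.28, adjusted p = 0.942 in edgeR). The sign of this small difference turned when AAV-shA4-treated replicate 2 or 5 was left out, with values of 0.010 and 0.00090. A change of Th between AAV-shA4 and AAV-shSCR larger than this interval was not seen. A smaller one may have been missed with 5 mice against 5.

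Over the 5 conditions, Th ran from 17.0 ± 3.27 CPM in untreated 25w WT mice (SD, n = 4) over 13.5 ± 2.04 in AAV-shA4-treated WT mice at 9w (SD, n = 3) and 10.5 ± 2.59 in untreated WT mice at 9w (SD, n = 3) to 6.10 ± 1.04 with AAV-shSCR and 5.88 ± 1.37 with AAV-shA4 in SCA7 mice (SD, n = 5 each). Of the neighbours in this order, the 2 WT groups at 9w overlapped, and so did the 2 SCA7 groups. The AAV-shA4-treated WT mice at 9w also overlapped with the untreated WT mice at 25w, in that the lowest 25w value, 12.4 CPM, lay between their values of 12.1 and 15.9 CPM. The lowest 9w value, 7.72 CPM in untreated replicate 2, lay below the highest SCA7 value, 8.06 CPM.

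In WT mice at 9w, AAV-shA4 was compared with no virus. As no WT mouse received AAV-shSCR, the hairpin and the virus that carries it cannot be told apart there. None of the 7 members was called there, a call being an adjusted p under 0.05 with a fold change above 1.3 in either direction. Of all 14733 genes tested 8 were called, or 0.0543%, and 1639 had an unadjusted p under 0.05. Of the members 1, Ddc, had an unadjusted p under 0.05 in edgeR, and DESeq2 called 0 of them and 50 of all genes. Th was measured at 15.9, 12.1 and 12.6 CPM with AAV-shA4 and at 11.1, 7.72 and 12.8 CPM without. Its groups overlapped, with a log2 fold change of 0.36 (SE 0.17, 95% interval −0.0095 to 0.72, adjusted p = 0.457 by the quasi-likelihood test of edgeR). It was 0.18 without untreated replicate 2 and 0.22 without AAV-shA4-treated replicate 1, and at most 0.52 without any other mouse. Ddc was 4.86, 6.00 and 5.01 CPM with AAV-shA4 and 4.02, 4.53 and 4.00 CPM without. These groups did not overlap, which held for 16.0% of all genes tested, and Ddc had a log2 fold change of 0.34 (SE 0.13, unadjusted p = 0.0252 and adjusted p = 0.376 in edgeR). Log2 fold changes of the other 5 members ranged from 0.040 for Adra1a to 0.22 for Htr2c.

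PCs, the output neurons of the cerebellar cortex, are known to express Htr1b and, in part, Th, and many of their genes were lower in SCA7 mice. Of the 22 PC genes, 15 were called lower with AAV-shSCR and 14 with AAV-shA4, with a median log2 fold change of −0.46 and −0.43 against 0.0017 and 0.0061 over all genes tested. Their summed level was 13389 ± 678 CPM in untreated 25w WT mice (SD, n = 4), 9614 ± 397 with AAV-shSCR and 9828 ± 523 with AAV-shA4 (SD, n = 5 each). It was 1.39-fold and 1.36-fold lower in the 2 SCA7 groups than in WT mice (exact two-sided permutation test, p = 0.0159 each, the smallest that 5 against 4 mice allow). Genes of other cells moved as well. Of 12 genes of astrocytes and Bergmann glia 0 were called, but 5 with AAV-shSCR and 6 with AAV-shA4 had an adjusted p under 0.05 in edgeR, and their summed level was 6070 to 6349 CPM in untreated 25w WT mice, 5484 to 5841 with AAV-shSCR and 5443 to 6233 with AAV-shA4. Of 6 endothelial genes 1 was called lower in each SCA7 group, and 4 and 5 had an adjusted p under 0.05. Of 10 granule cell genes 0 were called and 4 and 5 had an adjusted p under 0.05, with a median log2 fold change of −0.033 and −0.14. Over all 14862 genes tested, 2309 and 2018 had an adjusted p under 0.05 in edgeR. The part of these cells in the values of the members was not tested. Th and Htr1b were also expressed relative to the PC sum, which holds neither of them.

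Per 1000 CPM of PC genes, Th was at 1.27 ± 0.239 CPM in untreated 25w WT mice (SD, n = 4), against 0.632 ± 0.0855 with AAV-shSCR and 0.597 ± 0.129 with AAV-shA4 (SD, n = 5 each). The lowest WT value was 0.931 and the highest SCA7 value 0.796, so that the groups did not overlap. Relative to PC genes, Th was thus 1.99-fold lower with AAV-shSCR and 2.13-fold lower with AAV-shA4. The exact two-sided permutation test gave p = 0.0159 for each, the smallest possible, and 0.0794 after adjustment over 10 tests (2 genes in 5 comparisons), which does not pass 0.05. A p at this floor passes only if other tests of the 10 are about as small. With this test the 9w and untreated WT comparisons cannot go below 0.1 and 0.0571. The adjusted value therefore cannot decide whether the ratio differed.

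Htr1b was examined in the same way. Its level per 1000 CPM of PC genes was 1.96 ± 0.120 CPM in untreated 25w WT mice (SD, n = 4), 1.84 ± 0.0851 with AAV-shSCR and 2.03 ± 0.127 with AAV-shA4 (SD, n = 5 each). Both SCA7 groups overlapped with WT mice on this scale (exact two-sided permutation test, p = 0.143 and 0.365, adjusted p = 0.286 and 0.522), with log2 differences of −0.086 and 0.052. Between the SCA7 groups this ratio was higher with AAV-shA4 by 0.14 on the log2 scale (exact two-sided permutation test, p = 0.0317, adjusted p = 0.106), and the groups overlapped.

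**Figure D2:**
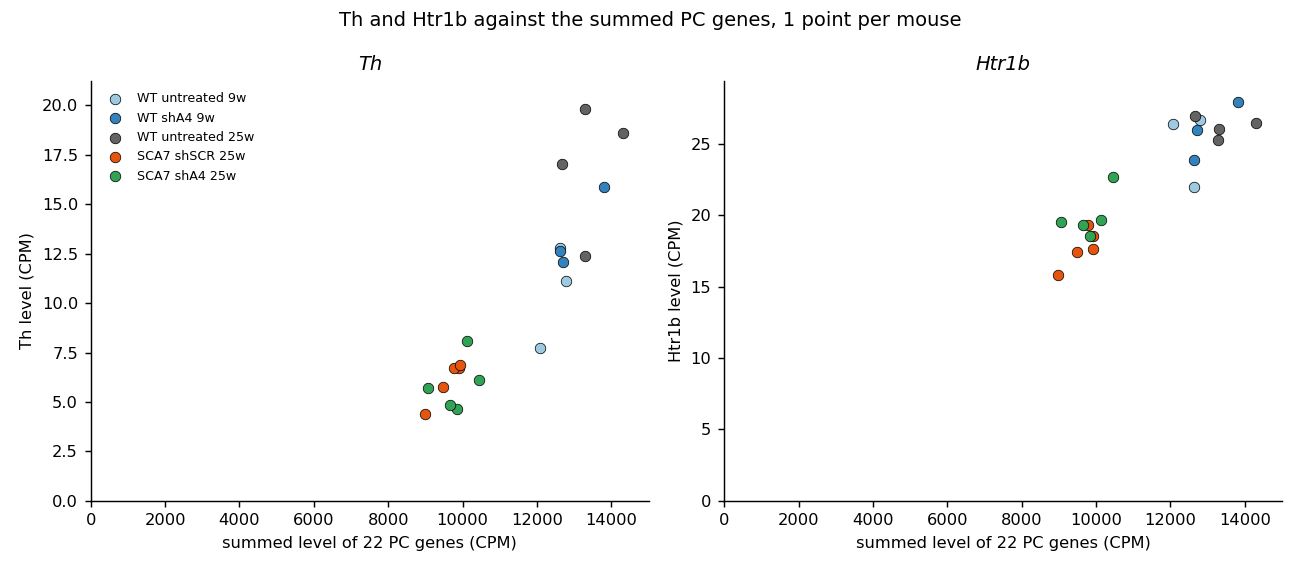
Level of Th (left) and Htr1b (right) in CPM against the summed level of 22 PC genes in CPM, both axes from 0, with 1 point per mouse coloured by group. SCA7 mice lie at lower PC sums (9060 to 10450 CPM with AAV-shA4) and at lower Th and Htr1b levels than WT mice labelled 25w. Per 1000 CPM of PC genes, Th is at 0.471 to 0.796 CPM in SCA7 mice and 0.931 to 1.49 CPM in WT mice labelled 25w, whereas Htr1b overlaps.

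Htr1b (ENSMUSG00000049511), on the minus strand of chromosome 9 from 81628291 to 81633828 (GRCm38), encodes the serotonin 1B receptor, which couples to inhibitory G proteins. It overlaps an antisense gene, D430036J16Rik, and whether reads were counted by strand is not given in the sources used here. The study itself singled Htr1b out on these libraries, so its direction is not independent evidence. It listed Htr1b among the PC genes restored with AAV-shA4, meaning below its fold limit against WT mice or no longer deregulated. The level of Htr1b at 25w was 26.9, 26.5, 26.0 and 25.3 CPM in untreated WT mice. With AAV-shSCR it was 18.6, 17.4, 19.3, 15.8 and 17.6 CPM, and with AAV-shA4 19.5, 18.6, 22.7, 19.7 and 19.3 CPM. All 10 SCA7 mice were below all 4 WT mice, and the 2 SCA7 groups overlapped.

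Htr1b fell by 0.56 on the log2 scale with AAV-shSCR (SE 0.062, 1.47-fold lower, adjusted p = 8.94e-06 by the quasi-likelihood test of edgeR). With AAV-shA4 it fell by 0.39 (SE 0.062, 1.31-fold lower, adjusted p = 0.000357 in edgeR), just past the fold change of 1.3 needed for a call. That second call was lost, through the fold limit and not the adjusted p, without AAV-shA4-treated replicate 2 (−0.37), without WT replicate 1 (−0.38) and without both libraries high in tectal genes (−0.37). Between AAV-shA4 and AAV-shSCR the log2 fold change was 0.17 (SE 0.060, 95% interval 0.040 to 0.29), with an unadjusted p of 0.0129 and an adjusted p of 0.532 in edgeR. AAV-shA4-treated mice were thus not called different from AAV-shSCR-treated mice in Htr1b, with groups that overlapped. With AAV-shA4, Htr1b was still called lower than in WT mice here, though narrowly, whereas the study counted it as restored. At 9w Htr1b was at 27.9, 26.0 and 23.8 CPM with AAV-shA4 and at 26.7, 26.4 and 21.96 CPM without, with overlap.

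Against this, the background of all genes tested was as follows. With AAV-shSCR against WT mice 4.02% of genes were called and 2.66% called lower, and the groups did not overlap in 16.8%. With AAV-shA4 against WT mice these shares were 3.45%, 2.27% and 13.4%. In each of these comparisons 2 of the 7 members were called, both lower, and they were Th and Htr1b. The members were chosen with earlier results of these data known, so these counts beside the shares are a description. Between AAV-shA4 and AAV-shSCR 0% of genes were called, none of the members among them. In that comparison edgeR gave 1222 genes an unadjusted p under 0.05, and DESeq2 called 5 genes, none of which is a member. Of the members 1, Htr1b, had an unadjusted p under 0.05 there in edgeR.

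**Figure D3:**
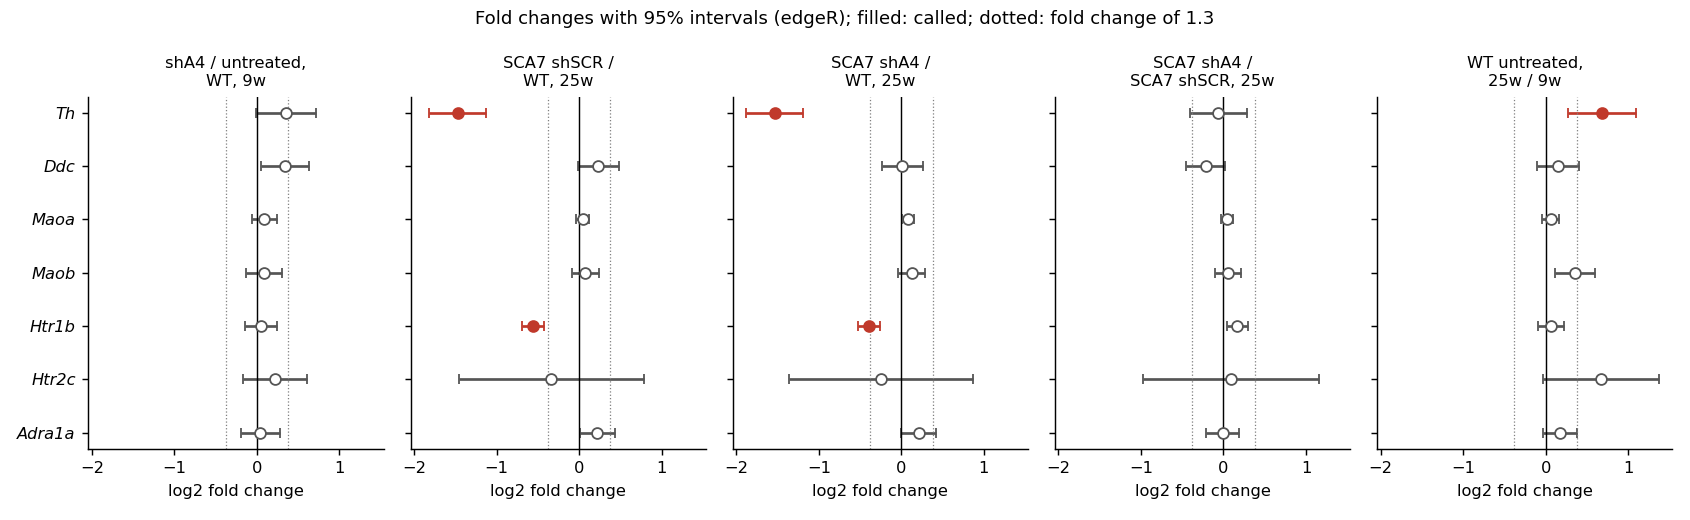
Log2 fold change (x axis) of each member (y axis) in the 5 comparisons, with the 95% interval of edgeR's fit. Filled red points are called, and dotted lines mark a fold change of 1.3. Th and Htr1b are called lower in SCA7 mice against WT mice, with −1.47 and −0.56 under AAV-shSCR, and Th is called higher at 25w than at 9w in untreated WT mice.

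Ddc was called in none of the comparisons by either edgeR or DESeq2. This gene (ENSMUSG00000020182), on the minus strand of chromosome 11 from 11814101 to 11898144, was at 5.29, 4.35, 4.69 and 4.18 CPM in untreated 25w WT mice. It was at 6.55, 5.55, 5.38, 4.81 and 4.91 CPM with AAV-shSCR and at 4.46, 3.91, 5.15, 5.59 and 4.33 CPM with AAV-shA4. All 3 groups overlapped, and the log2 fold change against WT mice was 0.23 with AAV-shSCR (SE 0.12, adjusted p = 0.208) and 0.013 with AAV-shA4 (SE 0.12, adjusted p = 0.962, both by the quasi-likelihood test of edgeR). The latter was negative when any of 4 mice was left out, with values down to −0.055. Ddc overlaps the antisense gene 1700042O10Rik.

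Maoa and Maob, neighbours on the X chromosome, encode the mitochondrial enzymes that oxidise monoamines. Maoa (ENSMUSG00000025037, plus strand, 16619698 to 16687818) had 58.6 ± 2.46 CPM in untreated 25w WT mice (SD, n = 4), 60.3 ± 2.10 with AAV-shSCR and 61.9 ± 2.06 with AAV-shA4 (SD, n = 5 each). The log2 fold change was 0.042 (SE 0.037, 95% interval −0.035 to 0.12) with AAV-shSCR and 0.080 (SE 0.037, 95% interval 0.0027 to 0.16, adjusted p = 0.172 by the quasi-likelihood test of edgeR) with AAV-shA4. These intervals lie inside the fold change of 1.3.

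Maob (ENSMUSG00000040147, minus strand, 16709282 to 16817366) encodes the form found largely in astrocytes and serotonergic neurons. Its level was 29.0, 23.0, 26.5 and 30.8 CPM in untreated 25w WT mice, 26.7 to 30.3 CPM with AAV-shSCR and 26.2 to 33.5 CPM with AAV-shA4, with overlap of all 3 groups. Its log2 fold changes against WT mice were 0.076 (95% interval −0.088 to 0.24) and 0.13 (95% interval −0.036 to 0.29).

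Adra1a (ENSMUSG00000045875, chromosome 14, plus strand, 66635251 to 66771168) encodes the alpha-1A adrenergic receptor, which couples to Gq. It was at 8.57, 7.32, 7.91 and 8.39 CPM in untreated 25w WT mice. It was at 9.23, 9.29, 8.59, 9.48 and 10.3 CPM with AAV-shSCR and at 8.10, 10.9, 8.71, 10.9 and 8.06 CPM with AAV-shA4. The AAV-shSCR-treated mice lay above all WT mice, narrowly at 8.59 against 8.57 CPM, whereas the AAV-shA4-treated mice overlapped with them. The log2 fold change was 0.22 (SE 0.099, unadjusted p = 0.0390, adjusted p = 0.147) with AAV-shSCR and 0.21 (SE 0.099, unadjusted p = 0.0484, adjusted p = 0.185) with AAV-shA4 by the quasi-likelihood test of edgeR, and neither was called.

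Htr2c (ENSMUSG00000041380, X chromosome, plus strand, 146962513 to 147197277), the gene of the serotonin 2C receptor, was the most variable member. The choroid plexus, the epithelium that secretes cerebrospinal fluid into the ventricles, is known for its high level of this receptor, and a dissected cerebellum can carry more or less of it. At 25w Htr2c was at 26.2, 10.2, 15.5 and 28.9 CPM in untreated WT mice and at 8.49, 22.9, 16.1, 17.1 and 15.5 CPM in AAV-shSCR-treated SCA7 mice. In AAV-shA4-treated SCA7 mice it was at 41.3, 2.90, 7.74, 7.55 and 24.9 CPM. The highest and the lowest of the 20 libraries thus belonged to the same group, and the SE of the late comparisons was 0.50 to 0.53 in the fit of all 14 libraries. The log2 fold change was −0.33 (95% interval −1.45 to 0.78) with AAV-shSCR and −0.24 (95% interval −1.36 to 0.87) with AAV-shA4 against WT mice, and a difference of a 1.3-fold size was not detectable. Between the SCA7 groups it was 0.09 (95% interval −0.98 to 1.16) and turned negative without AAV-shA4-treated replicate 1 (−0.56) or 5 (−0.084) or AAV-shSCR-treated replicate 1 (−0.068).

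The level of choroid plexus moved with these values. Summed over 12 choroid plexus genes, it ran from 54.2 CPM in AAV-shA4-treated SCA7 replicate 2, which also had the least Htr2c (112 reads), to 4035 CPM in untreated 25w WT replicate 4. Over the 14 libraries labelled 25w, Htr2c and the choroid plexus sum had Pearson's r = 0.852 (permutation test, p = 1e-04) and Spearman's rho = 0.899 (permutation test, p = 5e-05), with an adjusted p of 1e-04 for both measures. With the 2 libraries farthest from the median choroid level left out, r was 0.818 (n = 12, permutation test, p = 0.00052). With the mean of each group removed it was 0.868, and single groups held too few libraries for a value of their own. The 2 libraries high in tectal genes lay above the others at their choroid level, and without them r was 0.994 (n = 12), a choice made after the data were seen. Of the 12 choroid plexus genes, 0 were called in any of the 5 comparisons by edgeR or DESeq2, and 0 had an unadjusted p under 0.05 in edgeR. Their log2 fold changes had a median of −0.14 with AAV-shSCR and −0.57 with AAV-shA4 against WT mice, against 0.0017 and 0.0061 over all genes tested, and the part of choroid plexus in the group differences of Htr2c was not tested.

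**Figure D4:**
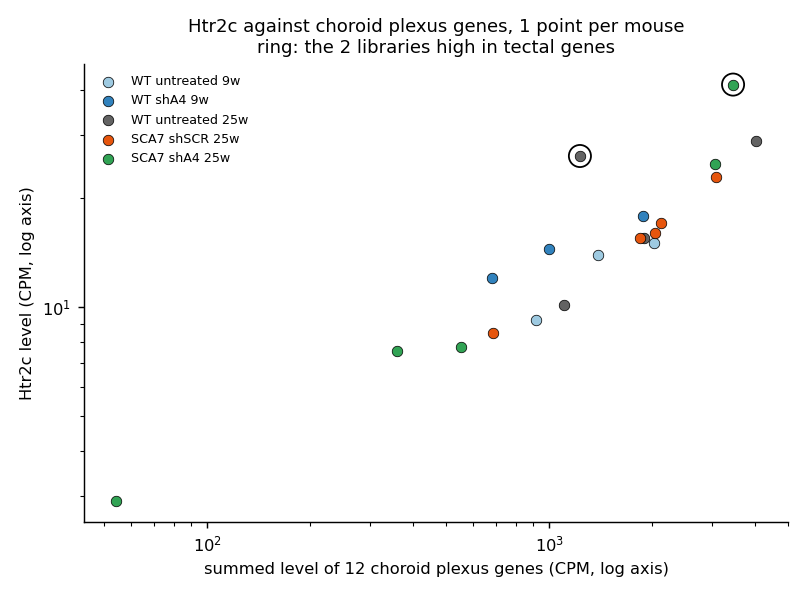
Level of Htr2c (y axis, CPM) against the summed level of 12 choroid plexus genes (x axis, CPM), both on log axes, with 1 point per mouse coloured by group. Htr2c is lowest, at 2.90 CPM, where the choroid plexus sum is lowest, at 54.2 CPM, and is higher at higher sums, and the 2 ringed libraries, which are high in tectal genes, lie above the other points.

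Untreated WT mice labelled 9w and 25w were compared as a description of the normal level. The label week cannot be told apart from anything else in which the 9w and 25w libraries differed. Th was higher at 25w, with 17.0 ± 3.27 CPM (SD, n = 4) against 10.5 ± 2.59 CPM (SD, n = 3) at 9w, a log2 fold change of 0.68 (SE 0.18, 1.61-fold higher, adjusted p = 0.0245 by the quasi-likelihood test of edgeR). The groups overlapped by 1 mouse, WT replicate 3 at 25w with 12.4 CPM against 12.8 CPM at 9w. It was the 1 member called, where 5.14% of all genes tested were called and 3.23% called higher. The call was lost when replicate 1 or 2 of the 9w mice or replicate 2 or 4 of the 25w mice was left out, with log2 fold changes of 0.50 to 0.72 and adjusted p of 0.0559 to 0.0728. Maob had an adjusted p of 0.0394 in edgeR but a 1.28-fold higher level (log2 fold change 0.36), below the fold limit, which it passed without 9w replicate 3 (0.47) or without 25w replicate 2 (0.43). The log2 fold change of Htr2c was 0.67 (adjusted p = 0.152) and was called without 25w replicate 2 (0.89, adjusted p = 0.0315 in edgeR). Th is also a gene of noradrenergic neurons, and the summed level of 4 of their markers was 0.0870 to 0.516 CPM at 9w and 0.265 to 1.76 CPM at 25w, highest in the 25w mouse with the least Th, replicate 3. The 2 of these genes that could be tested had a median log2 fold change of 2.06, with 0 called by edgeR and Dbh called by DESeq2 (unadjusted p = 0.0165 for Dbh in edgeR), and their part in the higher Th was not tested. All 12 choroid plexus genes had positive log2 fold changes in this comparison, with a median of 0.59.

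Genes whose levels ran most like those of Th over the 14 libraries labelled 25w were named by Pearson's r of log2 CPM, among 14862 genes. They were Aldoc (r = 0.982), Mdfi (0.971), Plxdc1 (0.971), Dusp5 (0.967) and the PC gene Gng13 (0.966). These r values include the difference between WT and SCA7 mice, and with the mean of each group removed they were 0.874, 0.754, 0.745, 0.761 and 0.733. Aldoc encodes aldolase C, the zebrin II antigen that marks the parasagittal stripes of PCs. It was at 2352 ± 174 CPM in untreated 25w WT mice (SD, n = 4), 1491 ± 86.5 with AAV-shSCR and 1508 ± 109 with AAV-shA4 (SD, n = 5 each), with log2 fold changes of −0.66 and −0.64 against WT mice. Of 4 genes of zebrin-positive PCs, Aldoc among them, 3 were called lower in either SCA7 group, and of 3 genes of zebrin-negative PCs 2 were. The median log2 fold change with AAV-shSCR and AAV-shA4 was −0.56 and −0.57 for the former and −0.43 and −0.44 for the latter.

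For Htr1b the closest genes were Hrh2 (r = 0.965), Atp1b1 (0.963), Atrnl1 (0.960), Kif3c (0.958) and Cap2 (0.957), with 0.735, 0.769, 0.690, 0.721 and 0.643 after removal of the group means. Hrh2 encodes the histamine H2 receptor, itself a receptor for a biogenic amine. Its level was 9.73 ± 0.421 CPM in untreated 25w WT mice (SD, n = 4), 4.35 ± 0.635 with AAV-shSCR and 5.08 ± 0.599 with AAV-shA4 (SD, n = 5 each), without overlap between SCA7 and WT mice. Between Th and Htr1b themselves r was 0.879, and 0.478 with the group means removed. For Th and Ddc r was −0.107, and 0.475 with the group means removed.

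A wider list of 45 other monoamine genes was read in the same fits. Over the 5 comparisons 31 or 35 of them were tested, and 3 were called in all, each lower in SCA7 mice. At 25w 3 of 35 tested genes were called lower with AAV-shSCR and 2 of 35 with AAV-shA4, with a median log2 fold change of −0.21 and −0.13 over the list. Over all genes tested, 2.66% and 2.27% were called lower, with a median of 0.0017 and 0.0061. The list, like the members, was chosen with earlier results of these data known. Of the list 28 and 23 of 35 were negative, among them 8 and 3 of the 8 tested serotonin receptor genes. AAV-shA4-treated replicate 1 and WT replicate 1 were high in tectal genes, and no AAV-shSCR-treated library was. Their part in these medians was not tested. By edgeR, 0 genes of the list were called between the SCA7 groups, at 9w or between the untreated WT groups, where 4, 3 and 9 had an unadjusted p under 0.05. DESeq2 called 0, 1 and 1 of them there, namely Htr5b at 9w and Dbh between the untreated WT groups. Htr5b, the gene of the serotonin 5B receptor, had 19, 16 and 16 reads with AAV-shA4 and 4, 4 and 2 reads in the untreated mice at 9w, without overlap (log2 fold change 2.65, SE 0.46, adjusted p = 0.0742 in edgeR). It was singled out here after its values were seen.

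Gchfr and Qdpr were 2 of the 9 tested genes of synthesis and cofactor. The other tested genes of the tetrahydrobiopterin cofactor, Gch1, Pts, Spr and Pcbd1, were not called, with log2 fold changes of −0.37, −0.050, −0.074 and 0.096 with AAV-shSCR. Gchfr encodes the feedback regulator of GTP cyclohydrolase I, the first enzyme of its synthesis. It had 105, 69, 83 and 83 reads in untreated 25w WT mice, 26 to 44 with AAV-shSCR and 28 to 42 with AAV-shA4, without overlap. Its log2 fold change was −1.02 with AAV-shSCR (SE 0.20, adjusted p = 0.00202) and −1.01 with AAV-shA4 (SE 0.20, adjusted p = 0.00219, both by the quasi-likelihood test of edgeR). Qdpr encodes dihydropteridine reductase, which regenerates tetrahydrobiopterin after each round of hydroxylation. It fell from 156 CPM in untreated 25w WT mice to 118 with AAV-shSCR (log2 fold change −0.40, adjusted p = 5.95e-06) and to 119 with AAV-shA4 (−0.39, adjusted p = 8.55e-06 in edgeR), without overlap. Its log2 fold change did not reach the fold limit without WT replicate 1 (−0.36 and −0.35), without AAV-shSCR-treated replicate 5 (−0.37) and without both libraries high in tectal genes (−0.36 and −0.35).

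The third was Adra2a, the gene of the alpha-2A adrenergic receptor, with a log2 fold change of −0.38 with AAV-shSCR (SE 0.10, adjusted p = 0.0165 by the quasi-likelihood test of edgeR) and −0.17 with AAV-shA4 (adjusted p = 0.301). Its groups overlapped at 8.92 to 11.2 CPM with AAV-shSCR against 11.04 to 15.7 CPM in WT mice. The highest WT value was that of replicate 1, one of the libraries high in tectal genes. The call was lost without WT replicate 1 (−0.28), WT replicate 3 (−0.38), AAV-shSCR-treated replicate 3 (−0.37) or 5 (−0.35), and without both tectal libraries (−0.28).

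**Figure D5:**
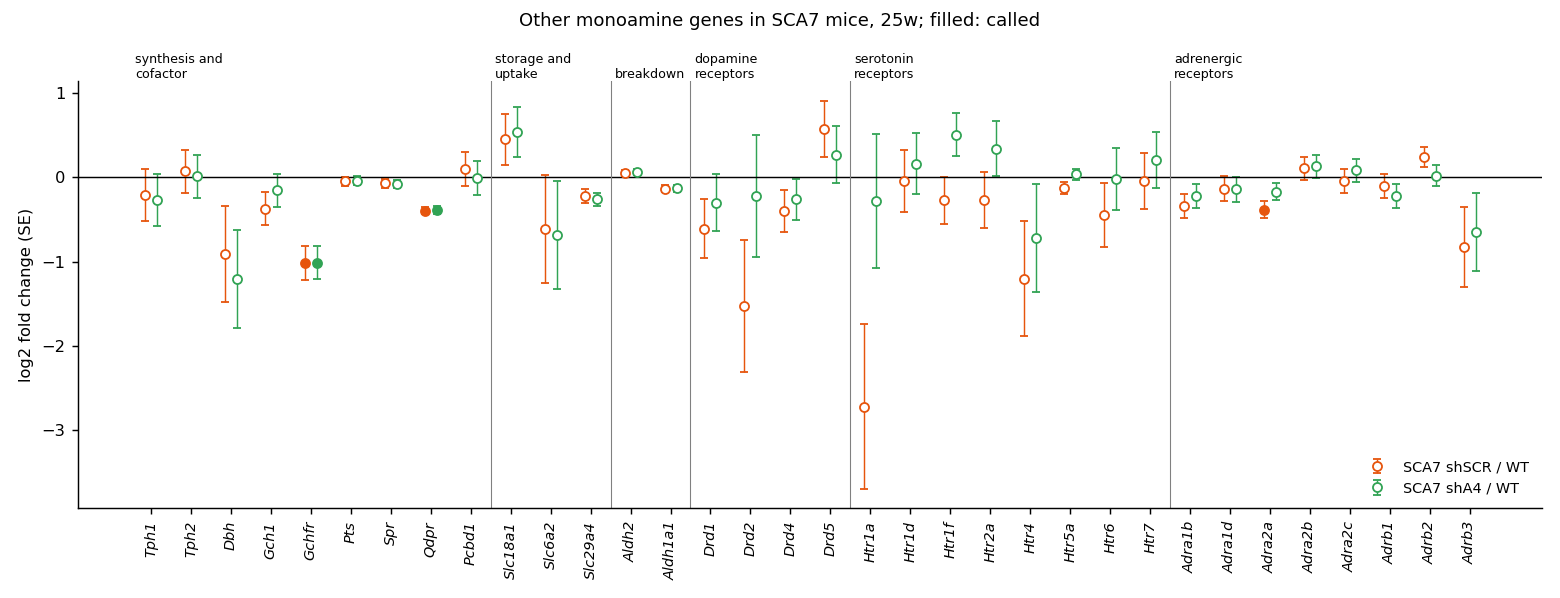
Log2 fold change with its SE (y axis) of tested genes of the wider list (x axis, grouped by role) in AAV-shSCR-treated (orange) and AAV-shA4-treated (green) SCA7 mice against untreated 25w WT mice. Filled points are called. Gchfr lies at −1.02 and −1.01, and open points with wide bars, such as those of Htr1a and Drd2, are not called.

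Of the wider list, genes with a high level per length were Aldh1a1 (153 CPM per kilobase over the 20 libraries), Qdpr (121), Aldh2 (120) and Slc29a4 (39.2). Aldh1a1 and Aldh2 act in breakdown, and Slc29a4 encodes the plasma membrane monoamine transporter of low affinity. These exceeded Maob, the highest member. At the other end, 9 genes could not be tested in any comparison, with 0 to 19 reads per library: Pnmt, Slc18a2, Slc22a3, Slc6a3, Slc6a4, Drd3, Htr2b, Htr3a and Htr3b. Tph1, Dbh, Slc6a2, Htr1f and Htr4 could also not be tested at 9w, with at most 27 reads, nor Htr5b at 25w. For these, 3 reads correspond to 0.0562 to 0.0952 CPM in a library, an upper limit for a count of 0 that covers counting error only.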

How the data were processed

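The authors trimmed reads with cutadapt (1.10), removed ribosomal reads, aligned the rest to mm10 with STAR (2.5.3a) and counted them per gene with HTSeq (0.6.1p1). The deposited values are raw read counts per gene and library, with 1 mouse per library. Whether HTSeq counted by strand is not given in the sources used here.

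Read counts of protein-coding genes were analysed with edgeR (4.0.16): TMM scaling, a filter on low counts (minimum 10 in a library, 15 in total) and the quasi-likelihood test, in separate fits for the 6 libraries labelled 9w, the 14 labelled 25w and the 7 untreated WT libraries. P-values were adjusted by Benjamini-Hochberg over all genes tested. Called genes changed by more than 1.3-fold with an adjusted p below 0.05. The study used DESeq2, which served here (1.42.0) as an alternative. The members and lists were chosen with earlier results of these data known. The 5 genes most correlated with Th and with Htr1b over the 14 libraries, and each called gene of the wider list, were named. Levels are CPM with TMM over all 20 libraries. Ratios to PC genes were compared with exact two-sided permutation tests. The edgeR fits were tested on simulated data. Of the wider list, 1 gene is counted but not reported here by name.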

Additional observations from a re-analysis of the deposited data

Results flagged for a closer look

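Of 36 groups checked for a library far from the others, 3 held one. Htr1b was at 22.7 CPM in AAV-shA4-treated SCA7 replicate 3, against 18.6 to 19.7 CPM in the other 4 mice of that group. Chance alone gives such a library in about 1 in 20 groups. The summed level of the 5 tectal genes was 36.9 CPM in AAV-shA4-treated SCA7 replicate 1 and 37.8 CPM in untreated 25w WT replicate 1, each far above the other mice of its group. These genes were chosen because those libraries stood apart, so this pair is a description that no chance rate applies to.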

How the results depend on the processing

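Over the alternatives for single members, 513 of 546 log2 fold changes kept direction and call, 8 lost and 3 gained the call, and 22 turned direction, as did 7 of 92 ratios. Th stayed called lower in SCA7 mice in every setting tried, with −1.60 to −1.38 with AAV-shSCR and −1.67 to −1.45 with AAV-shA4 on leaving out single mice. For AAV-shA4 against WT mice, leaving out single mice gave 1 to 2 called members, and 1 was left without both libraries high in tectal genes, Htr1b passing below the fold limit. Between the untreated WT groups, leaving out single mice gave 0 to 2 called members, a call on the adjusted p alone gave 2, and the replicate block gave 0 (Th 0.61, adjusted p = 0.115 by edgeR).

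Values that turned sign were small or those of Htr2c. Between the SCA7 groups Htr2c was −0.31 with the replicate block, −0.56 without the tectal libraries and −0.56 to 0.36 without single mice, Adra1a was 0.037 without the tectal libraries and −0.076 to 0.038 without single mice, and Th was −0.20 to 0.010. For AAV-shA4 against WT mice, leaving out single mice gave −0.055 to 0.085 for Ddc and −0.90 to 0.027 for Htr2c. At 9w it gave −0.035 to 0.10 for Htr1b and −0.019 to 0.10 for Adra1a, and between the untreated WT groups −0.020 to 0.12 for Htr1b. The ratio of Htr1b to PC genes was 0.034 (9w) and 0.080 (untreated WT groups) with a geometric mean of the PC genes, and −0.11 to 0.058 and −0.13 to 0.038 without single mice. The cause was not tested.

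Replicate numbers were not taken to pair the mice: deviations of same-numbered mice correlated at −0.226 to 0.491. The highest value was between AAV-shA4-treated SCA7 mice and WT mice at 25w, where 2 of 4 pairs were over 0.1. With the replicate block the called members were 2, 2, 0 and 0 outside the comparison of the untreated WT groups, as without it. All-gene calls were 37 against 8 at 9w and 525 against 764 between the untreated WT groups. At 9w, DESeq2 called 50 genes, no filter 26, a fit of all 20 libraries 20 and all annotated genes 16. The adjusted p alone called 2309, 2018 and 3419 genes against 597, 513 and 764. With 3 to 5 mice per group, a member that was not called may still have changed by an amount within its printed interval.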

Other observations

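A group of monoamine receptor genes was high in the 2 libraries with tectal genes. Of 25 receptor genes of the wider list, 9 were above all other 12 libraries labelled 25w in both of them: Drd2, Drd5, Htr1a, Htr2a, Htr2b, Htr4, Htr7, Adra1b and Adra2a. Htr2b rests on 5 and 4 reads against 0 to 2. Among the genes tested at 25w, 5.01% of all 14862 were above the other 12 libraries in both by CPM, and 8 of the 20 tested receptor genes were. Drd2, the gene of the dopamine D2 receptor, was at 7.70 CPM in AAV-shA4-treated SCA7 replicate 1 and 8.04 CPM in untreated 25w WT replicate 1. In the other 12 libraries labelled 25w it was at 0.622 to 1.45 CPM. Htr1a, the gene of the serotonin 1A receptor, was at 3.82 and 4.37 CPM against 0.132 to 0.696 CPM in those 12. The 2 libraries with tectal genes belong to different groups, and these values are descriptions chosen after the data were seen.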
